A study of Gasterosteus aculeatus with 53 samples.

Results

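Brains of Priest limnetic females that had met a conspecific male were compared with those of Priest limnetic females of the social control. Threespine stickleback (Gasterosteus aculeatus) of some lakes form pairs of species, a benthic that feeds on the lake bottom and a limnetic that feeds in open water. A limnetic female of Priest lake was courted by a male of her own lake and species (the conspecific treatment, 5 females), or she was placed with another female of her lake and species (the social control, 6 females). The comparison asks which transcripts in the female brain differ when the companion is a courting male rather than a female. The 11 libraries were chosen by their labels, out of 53 in the series, and 1 library was made from the whole brain of 1 female. A further library labelled as Priest limnetic, conspecific (trial 9) was left out, since the study judged it to be swapped with a Paxton benthic library, and 51 libraries were kept. The social control library of trial 72 was kept, and the counts of calls and the tests of single genes are given with and without it. The other libraries of the model came from Priest limnetic females with a heterospecific male (6), from Paxton limnetic females and from Paxton benthic females.

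In a stickleback encounter, the male courts with a zigzag dance and leads the female to his nest, and the female decides whether to follow and spawn. All females were ripe with eggs when tested, whereas the companion female of the social control was not reproductive. That companion came from the home aquarium of the tested female, while courted females were released in the nesting aquarium of the male. Such features of the encounter cannot be separated from the sex of the companion here. The encounter lasted at most 20 min, and the brain was taken at its end or at spawning. Transcripts that respond within minutes to sensory and social input, such as those of immediate early genes, can change within such a time, while many slower responses cannot. Each value is polyA RNA of a whole brain, with all its regions and cell types mixed, so that fewer cells of a type and less RNA per cell cannot be told apart. The fish were collected in the lakes and so may differ in genotype as well.

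The files name genes by Ensembl identifier alone, and neither the files nor the reference table used here pairs these identifiers with names. Roles could not be given to genes, lists of immediate early, neuropeptide, hormone and synaptic genes could not be counted, and the brain label could not be checked against markers of neurons, glia, blood or pituitary. Identifiers are printed for 2 genes that were higher and 2 that were lower. The other genes are described by their values.

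Total counts ranged from 36691463 to 43070315 (median 38740869) in the 5 conspecific libraries and from 33930192 to 43168016 (median 40710047) in the 6 social control libraries. The table held 22456 genes, of which 20011 passed a filter on low counts and were tested. The log2 CPM (the counts of a gene scaled to a common library size) of each pair of the 11 libraries correlated with a Pearson's r between 0.958 and 0.983 over 55 pairs, a description across genes. Trial numbers ranged from 11 to 68 (median 38) in the conspecific treatment and from 27 to 72 (median 49) in the social control.

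The social control library of trial 72 stood apart. On a scale set by the 500 genes that best separated Paxton benthic (0) and Priest limnetic (1) females, it lay at 0.440. The other 16 Priest limnetic libraries lay between 0.874 and 1.04, the Paxton benthic libraries between -0.201 and 0.198, and the Paxton limnetic libraries between 0.417 and 0.816. In a principal components analysis (PCA) of log2 CPM over all 51 libraries, trial 72 scored -20.1 on PC2, outside the Paxton limnetic range (8.97 to 34.7). There it lay within the ranges of the other Priest limnetic (-60.5 to -2.59) and the Paxton benthic libraries (-23.6 to 14.3). In a PCA over the 11 libraries, trial 72 (PC1 score 53.6, PC2 score -42.6) and trial 45 (-57.3 and -52.0), both of the social control, lay far from the other 9.

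**Figure D1:**
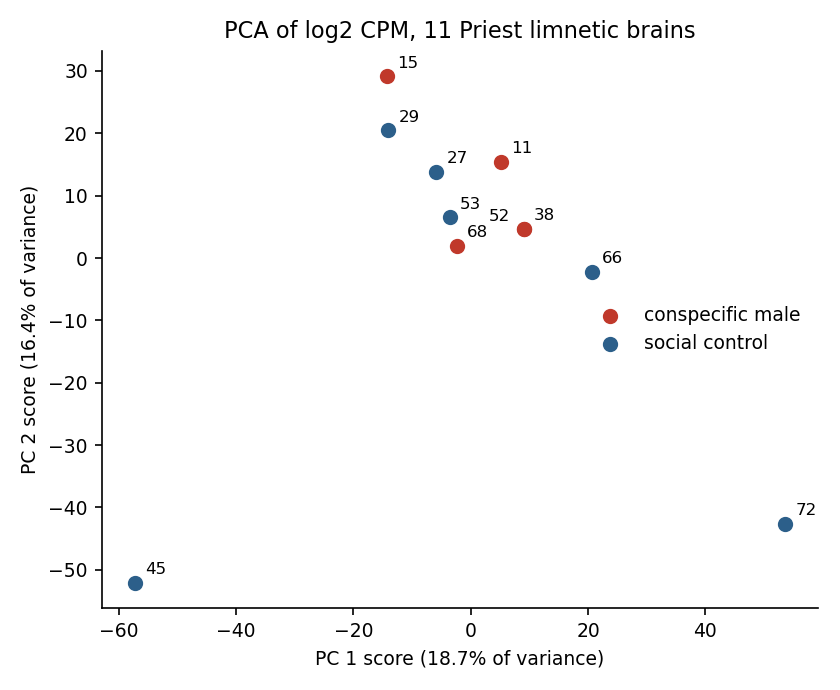
Scores of the 11 Priest limnetic libraries on the first and second principal component of log2 CPM, with the share of variance on each axis and the trial number beside each point. On the first component the conspecific libraries lie within the range of the social control libraries, and the social control libraries of trials 45 and 72 lie at the lower corners.

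Treatment was not visible on the main axes of variation. The first 3 components held 18.7%, 16.4% and 11.6% of the variance. On PC1, the 5 conspecific scores averaged 1.30 ± 9.91 (SD) and the 6 social control scores -1.09 ± 36.9 (SD), a difference of 2.39 (exact two-sided permutation test, p = 0.868). On PC2 they averaged 11.2 ± 11.3 in the conspecific treatment and -9.33 ± 30.5 in the social control, a difference of 20.5 (exact permutation p = 0.245, adjusted p = 0.734 over the 3 components). On PC3 the difference was 7.83 (exact permutation p = 0.563). Without trial 72 the differences were 19.2, 0.202 and 17.8, with exact permutation p-values of 0.270, 0.992 and 0.198. The spread of the social control on PC1 was larger than that of the conspecific treatment, and it came from the libraries of trials 45 and 72.

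At the level of single genes, few were called. The quasi-likelihood test of edgeR, fitted over all 51 libraries, called 4 of 20011 genes (0.02%) at a Benjamini-Hochberg adjusted p under 0.1, 1 higher (0.005%) and 3 lower (0.015%) in conspecific females. At an unadjusted p under 0.05 there were 933 genes (4.66%), where 5% would pass if no gene differed. Without trial 72 edgeR called 9 of 19999 genes (0.045%), 4 higher and 5 lower, and these held all 4 of the genes above. There were 978 genes (4.89%) at an unadjusted p under 0.05 in that fit. With DESeq2, 52 of the 21301 genes that had an adjusted p were called (0.244%), 12 higher and 40 lower, among them the 4 edgeR genes. Without trial 72 DESeq2 called 41 genes (0.193%), 15 higher and 26 lower, and 31 of them were among the 52. limma-voom with sample weights called 7 genes (0.035%), of which 2 were edgeR genes and 4 were DESeq2 genes, and 11 (0.055%) without trial 72. At an unadjusted p under 0.05 limma-voom had 1440 of 20011 genes, and 1950 of 19999 without trial 72. Both are above the 5% that would pass if no gene differed, unlike the shares in edgeR. With only the 11 libraries in the fit, edgeR called 0 genes, with 696 of 19201 at an unadjusted p under 0.05. With only the 17 Priest limnetic libraries it also called 0, with 628 of 19465 at an unadjusted p under 0.05. The calls of edgeR were thus seen only in fits over all 9 groups.

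The gene with the smallest edgeR p-value, ENSGACG00000005913, was higher in conspecific females. It had 38.3, 40.0, 29.8, 18.7 and 19.5 CPM in the conspecific brains of trials 11, 15, 38, 52 and 68. In the social control brains of trials 27, 29, 45, 53, 66 and 72 it had 16.8, 19.2, 14.7, 17.5, 18.4 and 17.9 CPM. The difference came from 3 of the 5 conspecific females, while trial 52 lay within the social control range and trial 68 just above it. These 3 had the lowest trial numbers of the conspecific treatment, and trials 11 and 15 came before every social control trial. The mean of the 5 conspecific brains was 29.2 ± 10.0 CPM (SD) and that of the 6 social control brains 17.4 ± 1.56 CPM (SD), a log2 fold change of 0.75 (SE 0.12, edgeR adjusted p = 0.00275). It was 0.75 (SE 0.13, edgeR adjusted p = 0.0113) without trial 72. With trial number as a covariate it was 0.72 (edgeR adjusted p = 0.00872). That covariate was a common slope over all 9 groups. It could not take up a change with trial number confined to the conspecific females of Priest lake. What part trial order had in this difference was not tested. All of these fits draw on the spread of all 9 groups. In edgeR fits of only the 11 or only the 17 Priest limnetic libraries, the adjusted p was 0.977 and 0.980.

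Outside this group, ENSGACG00000005913 varied little. The heterospecific females of Priest lake ranged from 15.8 to 19.7 CPM (17.4 ± 1.34, SD, n = 6), and their mean differed from the social control by a log2 fold change of -0.00092 (edgeR adjusted p = 0.999). Over the 46 libraries that were not Priest limnetic conspecific, the highest level was 19.8 CPM and the mean was 16.5 ± 1.59 CPM (SD). Trials 11, 15 and 38 lay above all of these. The response to a conspecific male was 0.13 (SE 0.12) in Paxton limnetic and -0.06 (SE 0.12) in Paxton benthic females on the log2 scale. It was larger in Priest limnetic females by 0.62 (SE 0.17) and 0.81 (SE 0.17), and neither difference passed the threshold over all genes (edgeR interaction, adjusted p = 0.311 and 0.214). Without trial 72 the adjusted p-values were 0.377 and 0.216. With 1 of the 11 libraries left out, the first of them ranged from 0.0892 (without trial 52) to 0.802 (without trial 11). It passed only without trial 52, the conspecific female with the lowest level.

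**Figure D2:**
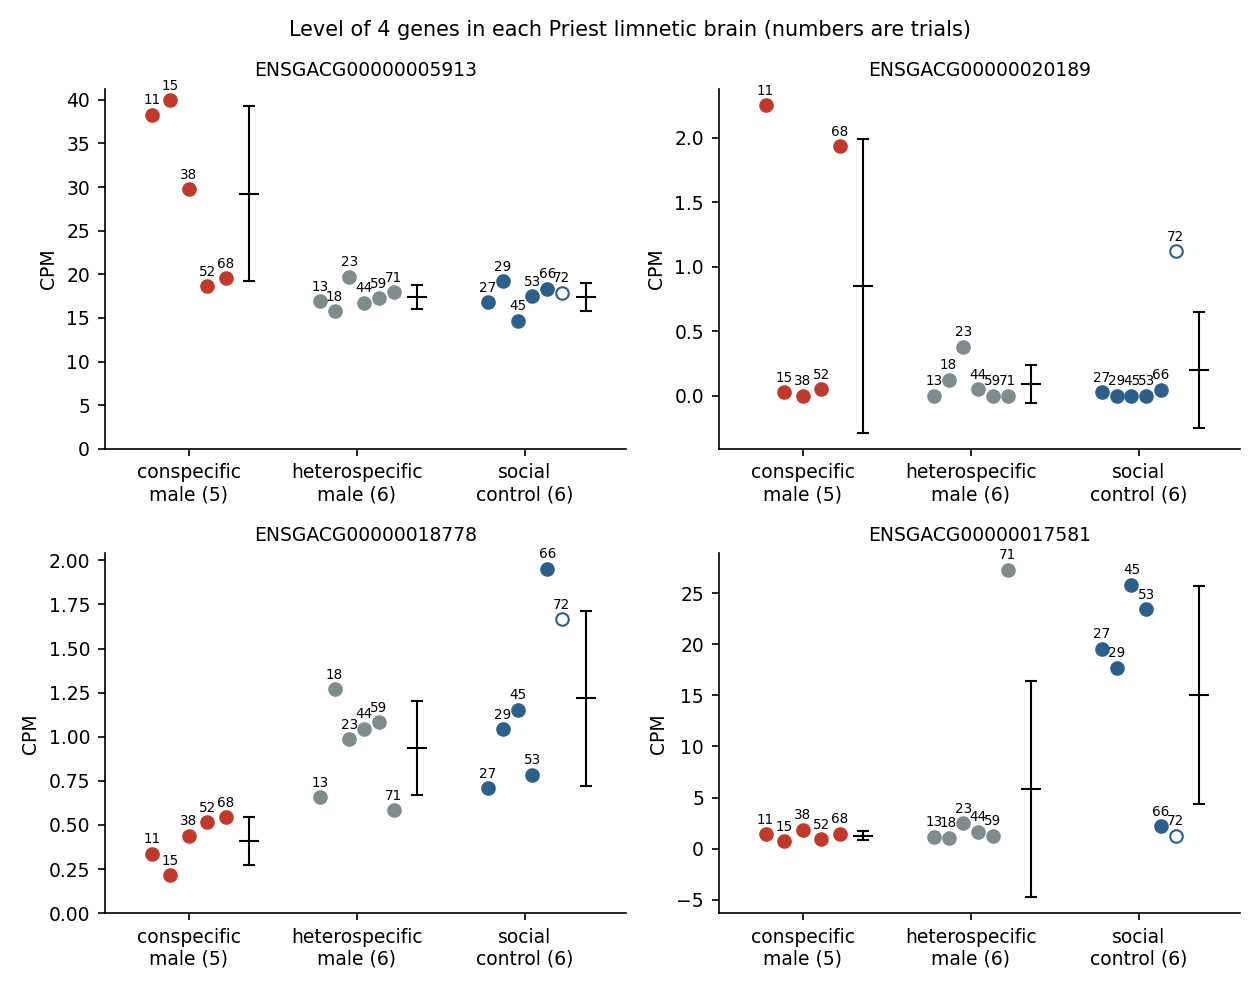
Level of 4 genes in CPM (linear axes) in each brain of the conspecific, heterospecific and social control treatments of Priest limnetic females, with the trial number beside each point, the open circle for trial 72, and the mean ± SD at the right of each group. The genes differ in how many fish carry the difference: 3 of 5 conspecific females for ENSGACG00000005913, all 5 for ENSGACG00000018778, 2 conspecific females for ENSGACG00000020189 and 4 social control females for ENSGACG00000017581.

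ENSGACG00000018778 was the only edgeR gene whose groups did not overlap. Its level was low, with 0.338, 0.214, 0.440, 0.514 and 0.545 CPM in the conspecific brains of trials 11, 15, 38, 52 and 68, which were 15, 8, 16, 20 and 20 counts. The social control brains of trials 27, 29, 45, 53, 66 and 72 had 0.708, 1.04, 1.15, 0.785, 1.95 and 1.67 CPM, which were 24, 45, 46, 33, 81 and 58 counts. Every conspecific female was below every social control female, and the means were 0.410 ± 0.136 CPM (SD, n = 5) and 1.22 ± 0.495 CPM (SD, n = 6) in these groups. The log2 fold change was -1.57 (SE 0.29, edgeR adjusted p = 0.0205), and -1.46 (SE 0.30, edgeR adjusted p = 0.0524) without trial 72.

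The heterospecific females had 0.584 to 1.27 CPM of ENSGACG00000018778, all above the highest conspecific female. The conspecific minus heterospecific log2 fold change was -1.19 (SE 0.29, edgeR adjusted p = 0.354), which did not pass. Paxton limnetic conspecific females averaged 0.786 ± 0.254 CPM (SD, n = 6) and their social control 1.31 ± 0.268 CPM (SD, n = 6). That was a log2 fold change of -0.74 (SE 0.26, edgeR unadjusted p = 0.00673, adjusted p = 0.976), in the same direction. The response in Priest limnetic females differed from it by -0.83 (SE 0.38, edgeR interaction, adjusted p = 0.974), or -0.73 (adjusted p = 0.916) without trial 72. In Paxton benthic females the fold change was 0.33 (SE 0.27). The response in Priest limnetic females was lower than in Paxton benthic females by a log2 difference of -1.89 (SE 0.39), with an edgeR adjusted p of 0.214 (-1.80 and 0.216 without trial 72). Across the 51 libraries, the log2 CPM of ENSGACG00000018778 had a Pearson's r of -0.707 with that of ENSGACG00000005913, the most negative of all tested genes. This is a description over libraries that share groups, and both genes were picked from the same contrast. When the library of trial 9 was kept under its label, in the fit over all 53 libraries, the fold change of ENSGACG00000018778 was -0.68 (edgeR adjusted p = 0.994).

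ENSGACG00000017581 was high in most social control females and low in every conspecific female. The conspecific brains of trials 11, 15, 38, 52 and 68 had 1.40, 0.749, 1.87, 0.926 and 1.47 CPM. The social control brains of trials 27, 29, 45 and 53 had 19.5, 17.7, 25.8 and 23.4 CPM, while those of trials 66 and 72 had 2.22 and 1.26 CPM. The social control thus fell into 4 high and 2 low brains with nothing between. The log2 fold change was -3.55 (SE 0.74, edgeR adjusted p = 0.0841), and -3.80 (SE 0.72, edgeR adjusted p = 0.0209) without trial 72. With each of the 11 libraries left out in turn, the edgeR adjusted p of ENSGACG00000017581 ranged from 0.0209 to 0.190 and passed in 3 of the 11 fits.

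High levels of ENSGACG00000017581 were not confined to the social control. Over the 51 libraries, 6 had more than 10 CPM, the lowest of them at 11.2 CPM, and all others had at most 2.78 CPM. The 6 were the 4 social control brains, the Priest limnetic heterospecific brain of trial 71 (27.3 CPM) and the Paxton limnetic conspecific brain of trial 20 (11.2 CPM). The heterospecific brains other than trial 71 had 1.05 to 2.51 CPM. The response differed between Priest limnetic and Paxton limnetic females by a log2 difference of -4.87 (SE 0.98, edgeR adjusted p = 0.0921), or -5.12 (SE 0.94, edgeR adjusted p = 0.0184) without trial 72. The library of trial 20 was the high one on the Paxton side. With 1 of the 11 libraries left out, the adjusted p of this difference reached 0.244 (without trial 11). It passed only without trial 66 (0.0317) or trial 72.

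The genes in the next 2 rows of the table moved with ENSGACG00000017581. The first had 0.0225, 0, 0.275, 0.180 and 0.136 CPM in the conspecific brains, against 6.05, 4.89, 9.25, 7.13, 0.0965 and 0.0287 CPM in the social control brains in the same order of trials. The second had 0.0267 to 0.275 CPM in the conspecific brains, against 4.19, 3.50, 3.28, 4.07, 0.0482 and 0.0287 CPM in the social control. The same 4 social control females were high, and trial 71 (5.84 and 1.85 CPM) and trial 20 (1.34 and 1.52 CPM) were high as well. Over 51 libraries, the log2 CPM of these genes had a Pearson's r of 0.914 and 0.867 with ENSGACG00000017581, the highest of all genes, and the next gene had 0.640. The first of them passed edgeR without trial 72 (log2 fold change -5.48, adjusted p = 0.0774), and DESeq2 called both. Whether the 3 rows are overlapping or near-identical genes could not be told from the identifiers, so that they may count as 1 observation rather than 3.

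**Figure D3:**
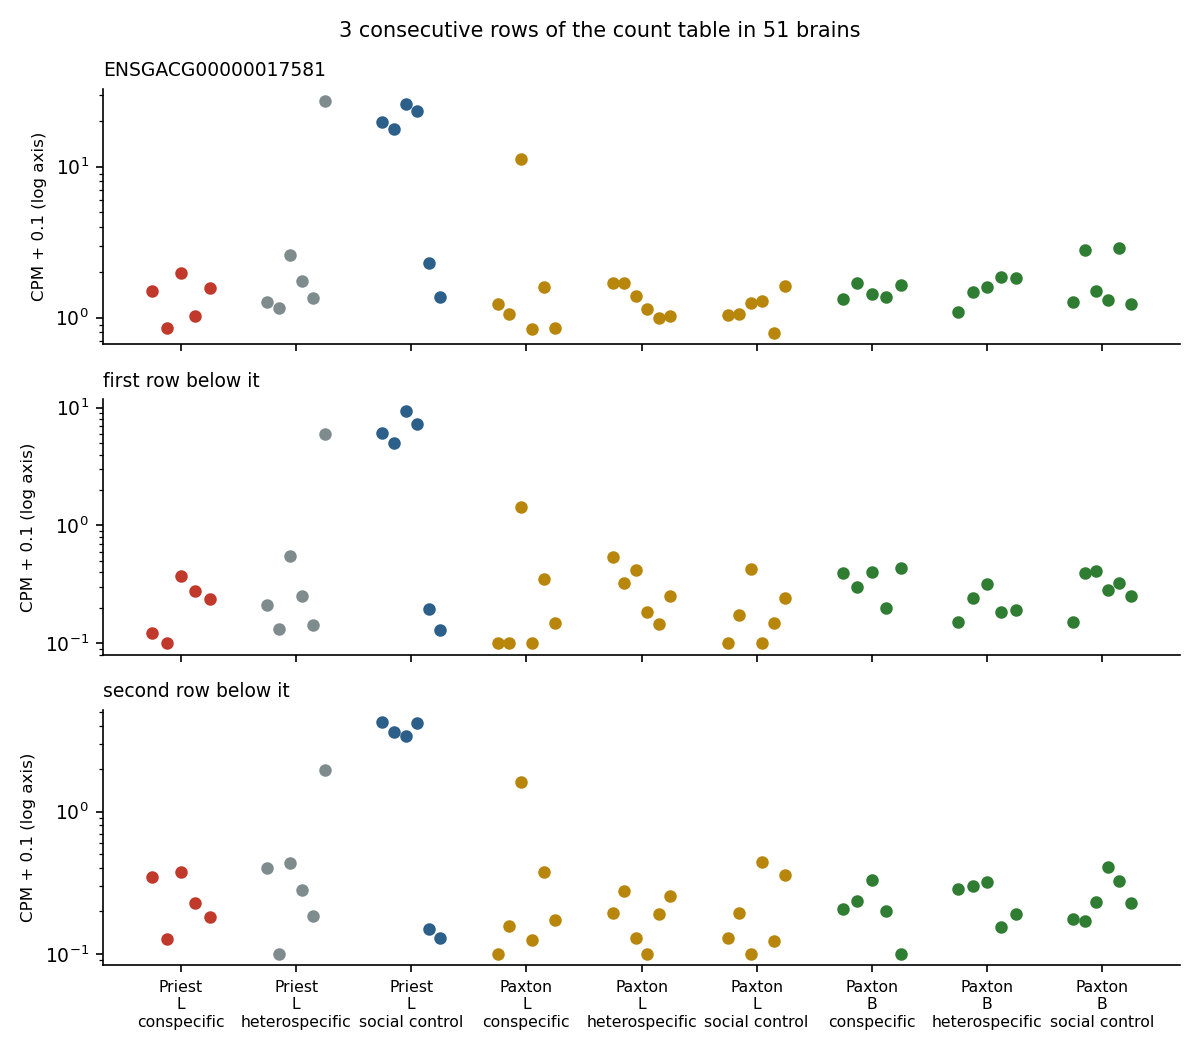
Level of ENSGACG00000017581 and of the genes in the next 2 rows of the count table in each of 51 brains, as CPM + 0.1 on a log axis, by population (L limnetic, B benthic) and treatment, with libraries in order of trial within a group. In all 3 panels the same 4 Priest limnetic social control brains, 1 Priest limnetic heterospecific brain and 1 Paxton limnetic conspecific brain stand above the rest.

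The third lower gene of edgeR (no identifier printed) was scarce in Priest limnetic fish in general. It had 0.225, 0.134, 0.247, 0.129 and 0.0818 CPM in the conspecific brains of trials 11, 15, 38, 52 and 68. The social control brains of trials 27, 29, 45, 53, 66 and 72 had 0.0886, 2.50, 0.652, 3.02, 0.313 and 3.73 CPM. In the 34 Paxton libraries it ranged from 1.29 to 4.84 CPM (median 3.19), so the 3 highest social control fish were at the Paxton level, and so was the heterospecific fish of trial 18 (2.57 CPM). Its log2 fold change was -3.36 (SE 0.66, edgeR adjusted p = 0.0412), and -3.00 (SE 0.66, edgeR adjusted p = 0.0897) without trial 72.

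Of the 9 genes that edgeR called without trial 72, 4 were higher and 3 of these were not called with it. ENSGACG00000020189 had 2.25 and 1.94 CPM in the conspecific brains of trials 11 and 68, and 0.0267, 0 and 0.0514 CPM in those of trials 15, 38 and 52. The social control had 0.0295, 0, 0, 0 and 0.0482 CPM in trials 27, 29, 45, 53 and 66, and 1.12 CPM in trial 72. Only 2 of 5 conspecific females were high, and so was the social control fish that lay between populations. Paxton benthic social control females had 2.05 to 4.02 CPM of this gene, and Paxton limnetic ones 0.343 to 1.32 CPM. The log2 fold change was 2.16 (SE 0.83, edgeR adjusted p = 0.968) with trial 72 and 5.56 (SE 1.03, edgeR adjusted p = 0.0209) without it, and the larger value rests on social control counts of at most 2 per library.

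A second gene was high in the same 2 conspecific females. It had 5.29 and 5.56 CPM in trials 11 and 68, against 0.321, 0.879 and 0.309 CPM in the conspecific females of trials 15, 38 and 52, and 0.193 to 1.06 CPM in the social control. Its log2 fold change was 2.31 (SE 0.55, edgeR adjusted p = 0.185), and 2.66 (SE 0.59, edgeR adjusted p = 0.0897) without trial 72. The remaining higher gene had 34.6, 22.8, 36.8, 38.8 and 30.9 CPM in the conspecific brains, against 30.1, 20.3, 15.8, 18.6, 22.3 and 34.2 CPM in the social control brains, so that the groups overlapped in trials 27 and 72. Its log2 fold change was 0.48 (SE 0.14, edgeR adjusted p = 0.412), and 0.61 (SE 0.13, edgeR adjusted p = 0.0897) without trial 72. Of the 5 lower genes, 4 were described above. The fifth did not overlap between groups, with 13.1, 12.6, 12.3, 11.7 and 14.3 CPM in the conspecific brains, against 17.4, 17.4, 70.27, 16.7, 18.0 and 18.2 CPM in the social control brains. A single social control brain, trial 45, stood far above the others. Its log2 fold change was -1.13 (SE 0.25, edgeR adjusted p = 0.0897) without trial 72, against -1.04 (edgeR adjusted p = 0.170) with it. Without trial 45 it was -0.46 (edgeR adjusted p = 0.778).

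Single libraries weighed heavily on the counts of calls. With 1 of the 11 libraries left out, edgeR called 2 (without the conspecific library of trial 68) to 10 genes (without the social control library of trial 29). DESeq2 called 29 (without the conspecific library of trial 11) to 61 genes (without the social control library of trial 29). Of the 4 edgeR genes, 1 was called in each of the 11 fits, ENSGACG00000005913, with a log2 fold change between 0.61 and 0.87. Its edgeR adjusted p was near the threshold without trial 11 (0.0802) and without trial 15 (0.0903). Of the 52 DESeq2 genes, 7 were called in each of its 11 fits, 1 higher and 6 lower. They included ENSGACG00000005913, ENSGACG00000018778, ENSGACG00000017581, the row next to the last of these, and the third lower gene of edgeR.

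**Figure D4:**
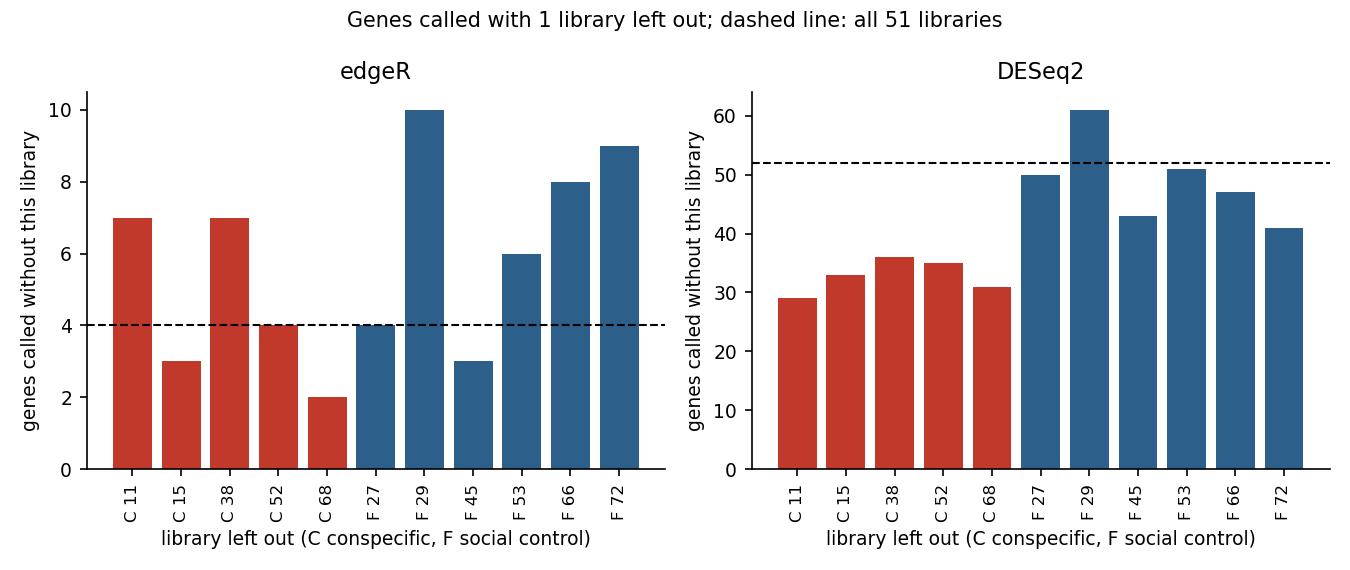
Number of genes called at an adjusted p under 0.1 by edgeR (left) and by DESeq2 (right) when 1 of the 11 libraries is left out, with conspecific libraries in red and social control libraries in blue, and the count over all 51 libraries as a dashed line. The bars run from 2 to 10 for edgeR and from 29 to 61 for DESeq2.

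Another of the 7 genes differed modestly but in every fish. It had 58.2, 50.1, 81.8, 62.9 and 51.8 CPM in the conspecific brains of trials 11, 15, 38, 52 and 68. The social control brains had 113.6, 89.3, 103.8, 100.9, 91.2 and 103.4 CPM, with no overlap, and the heterospecific brains had 66.5 to 101.6 CPM. Its log2 fold change was -0.72 (SE 0.16), with an adjusted p of 0.119 from edgeR and 0.00877 from DESeq2. Without trial 72 it was -0.72 (SE 0.16), with adjusted p-values of 0.1099 from edgeR and 0.0171 from DESeq2. Paxton limnetic females had a fold change of -0.27 (SE 0.15) and Paxton benthic females of 0.03 (SE 0.15), and neither differed from Priest limnetic females past the threshold (edgeR interaction, adjusted p = 0.974 and 0.743, or 0.916 and 0.490 without trial 72).

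Other calls of DESeq2 came from genes that were on in some fish and at 0 in others. Of the 50 DESeq2 genes that passed the filter of edgeR, 2 had no count in any of the 5 conspecific libraries, where 0 of 194201354 counts allows up to 0.0154 CPM. The first was the seventh of the genes called in every fit. It had 7.35 and 13.6 CPM (309 and 472 counts) in the social control brains of trials 53 and 72, and no count in the other 4 social control or the 6 heterospecific brains. All 16 Paxton benthic libraries had this transcript (2.94 to 10.7 CPM), as did 13 of 18 Paxton limnetic libraries. The second had 6.82, 9.14 and 8.07 CPM in the social control brains of trials 45, 66 and 72 and no count in the other 3. It was at 1.72 and 1.102 CPM in 2 of the 6 heterospecific brains, and 15 of 18 Paxton limnetic and 14 of 16 Paxton benthic libraries had no count. DESeq2 gave these genes adjusted p-values of 1.59e-30 and 0.00531, and edgeR gave 0.228 and 0.137. Without trial 72 these were 3.23e-27 and 0.0290 from DESeq2, and 0.474 and 0.132 from edgeR. In that fit the social control brain of trial 53 alone carried the first gene, so its small DESeq2 value rests on that fish.

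A large share of the DESeq2 genes had most of their reads in 1 fish. In 20 of the 50 genes (40%), 1 library held more than 50% of the summed CPM of the 11, against 144 of all 20011 tested genes (0.72%). Of the 20, 18 were lower and 2 were higher in conspecific females. The largest share of 1 library had a median of 37.1% over the 50 genes and 11.7% over all tested genes. This measure is taken from the contrast that chose the genes, so it describes them and tests nothing. Without trial 72 the share was over 50% in 12 of the 39 called genes that passed the filter (30.8%), 10 lower and 2 higher, against 120 of all tested genes (0.6%). The social control library of trial 72 was the highest for 13 of the 50 genes and held over 50% for 10, trial 66 for 8 and 4, and trial 45 for 8 and 3. Of the 144 tested genes with over 50% in 1 library, trial 72 held 71, trial 66 held 22 and trial 45 held 15, so that the share of trial 72 in the 20 DESeq2 genes was close to that among all genes of this kind.

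Many of the genes highest in trial 72 were also high in Paxton fish. In 9 of the 13 (69.2%), the median of the 34 Paxton libraries was above each of the other 16 Priest limnetic libraries. With the highest of the 11 libraries set aside in the same way for each gene, this was so for 2 of the other 37 DESeq2 genes (5.41%). It was so for 342 of the 2785 tested genes that were highest in trial 72 (12.3%), and for 38 of the 71 that had over 50% there (53.5%). Of the 13, 3 were still called when trial 72 was left out. A pair of them stood in consecutive rows, with 194 and 154 counts in trial 72 and 0 to 14 counts in the other 10 libraries, and DESeq2 adjusted p-values of 0.0146 and 0.0637 with trial 72 and 0.942 each without it. What part the origin of this fish had in these calls was not tested.

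Of the 8 genes highest in trial 66, the 4 with over 50% of their summed CPM there had other marks. One had 136.9 CPM in trial 66, against 0.0900 to 0.927 CPM in the conspecific brains and 0.0251 to 2.12 CPM in the other social control brains. A second had 109.0 CPM in trial 66, against 0.257 to 0.668 CPM in the conspecific brains. Both were also high in the heterospecific brain of trial 59 (78.6 and 40.6 CPM) and reached 85.5 and 33.8 CPM in Paxton benthic fish, and their log2 CPM had an r of 0.889 over 51 libraries. Without trial 66 the DESeq2 adjusted p-values of these genes were 0.893 and 0.922, against 0.00531 and 0.00959 with it. Without trial 72 they were 0.00456 and 0.00699. A further pair in consecutive rows had similar counts in the 51 libraries, with 3822 and 3606 in trial 66, a ratio of the first to the second between 1 and 1.47 (median 1.06) and an r of 0.997. Such rows may share reads, as the handling of overlapping genes is not given in the sources used here. This pair had DESeq2 adjusted p-values of 0.0979 and 0.0988, or 0.0709 each without trial 72, and 0.946 and 0.936 without trial 66. In all, 7 of the 50 genes stood in 3 runs of consecutive rows.

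**Figure D5:**
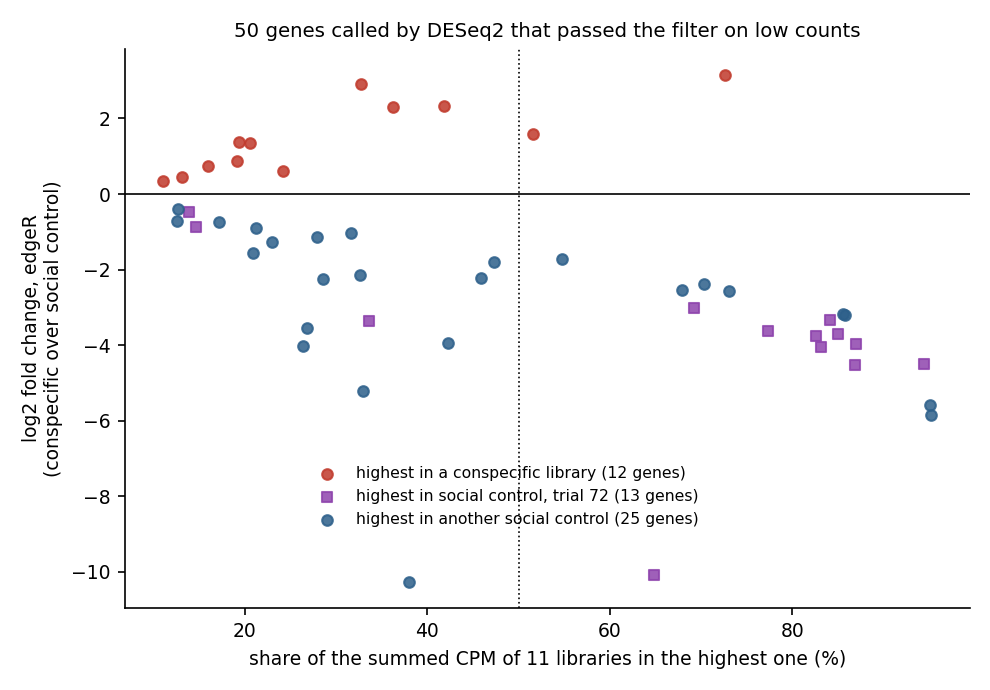
For the 50 genes called by DESeq2 that passed the filter on low counts, the fitted log2 fold change of edgeR (conspecific over social control) against the share of the summed CPM of 11 libraries that lay in the highest library, with the 50% line dotted. To the right of the line lie 20 genes, 2 above and 18 below 0, and the library of trial 72 is the highest for 10 of them. The values near -10 belong to genes with no count in any conspecific library and are not bounds.

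Genes that separated the groups without overlap were few. The 5 conspecific values were all above or all below the 6 social control values in 56 of 20011 genes (0.28%), 24 higher (0.12%) and 32 lower (0.16%). Without trial 72 there were 129 (0.645%). Some genes separate in this way by chance alone, and a larger share of them does so when a group is smaller. Both shares, 0.28% and 0.645%, lay below those that a random split into groups of these sizes would give for values without ties. Lack of overlap in a gene is thus not by itself a mark of a response to treatment. The counts were not tested against that chance share. They describe the genes, and the rise without trial 72 is not read as separation that this library had hidden. Of the 56 genes, 1 was called by edgeR and 9 by DESeq2. The absolute log2 fold change had a median of 0.28 for the 24 higher and 0.52 for the 32 lower genes, and 16 and 14 of them had a mean over 10 CPM. The most abundant that DESeq2 called had 599.2, 777.1, 666.4, 894.6 and 703.9 CPM in the conspecific brains, against 570.2, 595.5, 524.0, 487.8, 541.0 and 476.8 CPM in the social control brains. It was higher by a log2 fold change of 0.45 (adjusted p = 0.0900 from DESeq2, 0.242 without trial 72), and the smallest edgeR adjusted p of the 24 higher genes was 0.228.

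Over all tested genes, the log2 fold changes were centred near 0 (median -0.0050), with 9746 above and 10265 below 0. Their absolute value had a median of 0.37 for 2549 genes under 1 CPM, 0.15 for 5128 genes from 1 to 10 CPM, 0.083 for 10178 genes from 10 to 100 CPM and 0.080 for 2156 genes over 100 CPM. The median standard error in these classes was 0.52, 0.22, 0.12 and 0.11.

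The DESeq2 genes of Priest limnetic females were looked up in the other populations. Of the 50 genes, 4 (8%) had an unadjusted edgeR p under 0.05 for conspecific against social control in Paxton limnetic females, 3 of them in the same direction, where 2.85% of all tested genes did. A pair of the 4 were the consecutive rows with similar counts, which may count as 1 observation. In Paxton benthic females there were 2 (4%), 1 of them in the same direction, where 5.82% of all tested genes did. 0 of the 50 were called by edgeR in Paxton limnetic (0.075% of all tested genes were) or Paxton benthic females (0.00999%). The direction was the same in 25 (Paxton limnetic) and 29 (Paxton benthic) of the 50. How many of all tested genes had the same direction was not counted, so these 2 counts only describe the chosen genes. The heterospecific mean of Priest limnetic females lay nearer to the conspecific mean for 29 genes and nearer to the social control mean for 21. Of the 39 genes called without trial 72, 5 (12.8%) had such a p in Paxton limnetic females, 4 of them in the same direction, and 2 (5.13%) in Paxton benthic females. The same pair of consecutive rows was among the 4, and may again count as 1 observation. Over the 39 genes, the heterospecific mean lay nearer to the conspecific mean for 21 and nearer to the social control mean for 18. Both sets of genes were chosen by the contrast of the conspecific and social control groups. Of the 50 genes, 18 had over 50% of their summed CPM in 1 social control library. The counts of nearer means thus describe the chosen genes and test nothing, and they were not made over all tested genes.

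The difference in response between populations was tested gene by gene. Between Priest limnetic and Paxton limnetic females, edgeR called 2 of 20011 genes (0.00999%), DESeq2 called 28 (0.129%) and limma-voom 0 (with 1420 of 20011 at an unadjusted p under 0.05). Without trial 72 the counts were 4 (0.02%) in edgeR, which held both of these genes, 32 (0.156%) in DESeq2 and 0 in limma-voom (with 1840 of 19999 at an unadjusted p under 0.05). One of the 2 was ENSGACG00000017581. The other had a log2 difference of -14.18 (edgeR adjusted p = 0.0353), or -14.45 (edgeR adjusted p = 0.0184) without trial 72, and was set by the Paxton limnetic conspecific brain of trial 20, with 59.0 CPM, while the Priest limnetic conspecific brains had 0 to 0.0549 CPM and the social control brains 0 to 2.30 CPM. Between Priest limnetic and Paxton benthic females, edgeR called 0 genes (1180 or 5.9% had an unadjusted p under 0.05). The count was 8 (0.0368%) in DESeq2 and 776 (3.88%) in limma-voom. Without trial 72 it was 0 in edgeR, 18 (0.0878%) in DESeq2 and 2172 (10.9%) in limma-voom. At an unadjusted p under 0.05 edgeR then had 1651 of 19999 genes, a larger share than the 5.9% with trial 72. The tools differ most in this comparison, and it gives no settled count of genes.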

How the data were processed

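Whole-brain polyA RNA of 53 females was sequenced as paired reads of 50 bases over 8 lanes, 1 library per fish. The authors trimmed the reads with Trimmomatic (v. 0.33), aligned them with BWA (v. 0.7.7) to the Ensembl stickleback genome and counted reads per gene with bedtools (v. 2.23.0). The deposited values are these raw counts, without normalization. Whether the counting used strand, and how overlapping genes were treated, is not given in the sources used here.

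Samples were grouped by population and treatment as labelled, and 51 libraries entered 1 edgeR (v. 4.0.16) model with a mean for each of 9 groups (TMM, filterByExpr, quasi-likelihood F-test, call at adjusted p under 0.1). DESeq2 (v. 1.42.0) with treatment by population, the design of the study, limma-voom (v. 3.58.1), other filters, scalings and sets of libraries were alternatives. Values printed as CPM are TMM-scaled. Each SE of a log2 fold change is the absolute edgeR fold change divided by the square root of its F statistic. The PCA used log2 CPM with a prior count of 2, and mean scores were compared with exact permutation tests. P-values of DESeq2 that were NA (495 genes without an adjusted p) stayed NA. The tests were checked on 1 set of counts simulated from the means and spreads that edgeR had fitted. There edgeR and DESeq2 recovered similar shares of the changed genes, and DESeq2 made more false calls. Since those counts followed the model of edgeR, they cannot rank the tools on the real data. In RefSeq's gene table (assembly fGasAcu3.hap1.1) 0 identifiers matched, so lists of named genes could not be used and named genes follow the planned rule in part: every gene called by edgeR with or without trial 72 is described, and identifiers are printed for the 2 higher and 2 lower genes with the smallest p without trial 72, a choice made after their values were seen. The members and lists were chosen with earlier results of these data known.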

Additional observations from a re-analysis of the deposited data

Results flagged for a closer look

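The farthest sample of each group was set against the others by Dixon's criterion in 67 sets of values (the levels of the genes described, the total counts, the component scores and the position between populations). Chance picks out about 1 set in 20. Here 20 were picked out, but several of these genes had been described because 1 library was high.

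In the conspecific treatment, trial 38 was the highest in the second row of the pair carried by trial 72, at 0.247 CPM or 9 counts. In the heterospecific treatment, trial 59 was high in the pair of genes with large shares in trial 66 (78.6 and 40.6 CPM) and in the consecutive rows high in that library (10.3 and 9.62 CPM). Trial 71 was high in ENSGACG00000017581 (27.3 CPM), in the 2 rows below it (5.84 and 1.85 CPM) and in the gene shared by the conspecific brains of trials 11 and 68 (1.17 CPM). Trial 18 was high in the third lower gene of edgeR (2.57 CPM) and trial 23 in ENSGACG00000020189 (0.381 CPM). In the social control, trial 72 was far from the others in its position between Paxton benthic and Priest limnetic females (0.440), in ENSGACG00000020189 (1.12 CPM) and in the row pair described with it (5.57 and 4.42 CPM). Trial 66 stood above the others in the same 4 genes as trial 59, at 136.9, 109.0, 92.2 and 87.0 CPM. Trial 45 did so in the fifth lower gene (70.27 CPM).

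By the interaction test of edgeR, 2 genes passed for a difference in response to a conspecific male between Priest limnetic and Paxton limnetic females. For ENSGACG00000017581 the log2 difference was -4.87 (adjusted p = 0.0921, or 0.0184 without trial 72), and for the gene high in the Paxton limnetic brain of trial 20 it was -14.18 (adjusted p = 0.0353, or 0.0184 without trial 72). That brain was high in both genes. With 1 of the 11 libraries left out, the adjusted p of ENSGACG00000017581 passed only without trial 66 (0.0317) or trial 72.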

How the results depend on the processing

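Against 4 calls of edgeR, DESeq2 gave 52 (41 without trial 72), limma-voom 7 (11 without trial 72), no filter on low counts 19, and fits of only the 11 or only the 17 Priest limnetic libraries 0 each. Robust estimation (3 calls), RLE scaling (4), all 53 libraries (4) and trial number as a covariate (5) stayed within 1.5 times. Leaving out 1 library gave 2 to 10 calls in edgeR and 29 to 61 in DESeq2 (the DESeq2 fits were chosen after seeing the data). The interaction with Paxton limnetic females gave 2 calls in edgeR, 28 in DESeq2 (32 without trial 72), 0 in limma-voom (0 without trial 72) and 0 to 4 with 1 library left out. That with Paxton benthic females gave 0, 8 (18 without trial 72), 776 (2172 without trial 72) and 0 to 1. For both interactions, limma-voom and the fits of DESeq2 and limma-voom without trial 72 were added after seeing the data. On the 500 most variable genes the differences on PC1 and PC3 were -7.36 and -12.50 (exact permutation p = 0.662 and 0.0541, adjusted p = 0.667 and 0.162). They were 2.39 and 7.83 on all tested genes, where signs were set so that the conspecific mean was higher. Components of the 500 genes were turned to correlate positively with these, so both differences reversed. The cause of these differences between settings was not tested.

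Of the 4 genes with printed identifiers, 0 changed direction under the alternatives run. ENSGACG00000005913 passed in 20 of 22 alternatives, ENSGACG00000018778 in 16 of 22, ENSGACG00000017581 in 11 of 22 and ENSGACG00000020189 in 2 of 20. These alternatives include the 11 fits with 1 library left out, which share most of their libraries. ENSGACG00000005913 failed in the fits of only the 11 or only the 17 Priest limnetic libraries (edgeR adjusted p = 0.977 and 0.980). All other alternatives had all 9 groups in the fit. Groups of 5 and 6 wild-caught fish, low counts of several genes and identifiers without names limit what can be read from the calls. No paired analysis was possible because the trial numbers are not shared between the treatments.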
